A study of Mus musculus with 3 samples.

Results

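The expression of 10 transcription factors that pattern the floor plate and the caudal neural tube was examined in MGE-GFP+ cells from the embryo and in the ES-Lhx6-GFP+ and ES-Lhx6-GFP- fractions of a differentiated ES cell line. The genes were *Foxa1*, *Foxa2*, *Nkx2-2*, *Nkx2-9*, *Nkx6-1*, *Nkx6-2*, *En1*, *En2*, *Irx3* and *Irx5*. Their probes were found through the RefSeq transcript that each probe carries, which gave 12 of the 55681 mouse probes on the array, and 10 of the 20145 genes that could be named. *Foxa2* and *Nkx2-2* had 2 probes each and the other genes 1 each. All 10 genes gave a value or a bound in every comparison.

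ES-Lhx6-GFP+ cells were the GFP+ fraction, and ES-Lhx6-GFP- cells the GFP- fraction, of a FACS sort at day 12 of one male ES cell line, J14, of strain 129S4/SvJae. These cells carried a BAC transgene in which GFP is driven by *Lhx6* regulatory sequences and, according to the labels, also a viral 692-mCherry enhancer reporter. Both populations had been aggregated with 100 ng/ml of the Wnt antagonist Dkk-1, had received 6 nM of the Smoothened agonist SAG from day 3, and remained in 6 nM SAG after transfer to a dish on day 6. MGE-GFP+ cells were sorted without culture from the medial ganglionic eminence (MGE) of E12.5 embryos of CD1 background, labelled female, that carried the *Lhx6-GFP* BAC. The number of embryos pooled is not given in the sources used here. GFP reports the transgene and was not itself measured, and ES-Lhx6-GFP- cells are all live cells below the gate and no single cell type. MGE-GFP+ and ES-derived cells also differed in strain, labelled sex and culture, which cannot be told apart here from their source. In such bulk samples fewer cells of a type and less RNA per cell cannot be told apart.

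Sonic hedgehog, made by the notochord and then by the floor plate at the ventral midline, patterns the neural tube by inducing different transcription factors at different distances from its source. Foxa2, with its close relative Foxa1, directs formation of the floor plate and of ventral midbrain neurons, Nkx2-2 and Nkx2-9 mark the progenitors next to it, and Nkx6-1 and Nkx6-2 mark a broader ventral band that includes motor neuron progenitors. En1 and En2 are homeodomain factors of the midbrain and anterior hindbrain, and Irx3 and Irx5 are Iroquois factors expressed caudal to the telencephalon. The MGE arises at the ventral telencephalon, where the hedgehog response includes *Nkx2-1*, and its postmitotic neurons express *Lhx6*. SAG activates the same receptor pathway.

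Promoter sequences from RefSeq (build GRCm38.p6) were available for 8 of the 10 genes, in 10 windows of 250 bases that end at the base before the start of transcription. *Foxa2* had 3 of these windows, and none was listed for *En2* or *Irx5*. Each window was searched on both strands for the forkhead motif TGTTTAC, the GLI motif GACCACCCA, the NKX2 motif CAAGTG and the Iroquois motif ACATGT. The windows of *Foxa1* and *Nkx2-2* are printed because each holds the motif of its own protein family, and those of *Nkx6-2* and *Irx3* because these genes differed most between the ES populations. Sequences run 5′ to 3′ on the strand of the gene, and capitals mark the letters that matched a motif.

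Foxa1, chr12:57546112-57546361, minus strand: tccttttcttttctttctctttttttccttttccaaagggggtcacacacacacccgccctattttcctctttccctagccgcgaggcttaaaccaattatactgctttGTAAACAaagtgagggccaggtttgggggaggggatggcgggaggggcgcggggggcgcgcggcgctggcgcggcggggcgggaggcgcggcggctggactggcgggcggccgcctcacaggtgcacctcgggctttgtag
Nkx2-2, chr2:147186403-147186652, minus strand: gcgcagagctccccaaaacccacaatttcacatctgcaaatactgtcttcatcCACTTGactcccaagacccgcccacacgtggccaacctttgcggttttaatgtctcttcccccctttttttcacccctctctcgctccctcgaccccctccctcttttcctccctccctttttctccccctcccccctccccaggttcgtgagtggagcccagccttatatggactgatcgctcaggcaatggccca
Nkx6-2, chr7:139582798-139583047, minus strand: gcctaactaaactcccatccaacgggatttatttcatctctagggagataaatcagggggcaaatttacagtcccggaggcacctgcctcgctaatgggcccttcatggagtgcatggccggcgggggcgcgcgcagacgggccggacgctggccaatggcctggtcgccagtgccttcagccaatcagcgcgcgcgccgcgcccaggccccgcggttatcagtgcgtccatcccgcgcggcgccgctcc
Irx3, chr8:91801655-91801904, minus strand: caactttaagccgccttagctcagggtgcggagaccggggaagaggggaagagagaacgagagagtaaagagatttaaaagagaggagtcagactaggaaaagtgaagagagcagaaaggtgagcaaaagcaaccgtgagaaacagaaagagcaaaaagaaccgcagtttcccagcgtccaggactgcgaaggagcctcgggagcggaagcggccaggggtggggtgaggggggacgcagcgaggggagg

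The capitals in the *Foxa1* window are the forkhead motif on the reverse strand, 141 bases before the start of transcription, and 1 of the 8 genes held this motif, as did 3.17% of the 32851 windows of all genes. The capitals in the *Nkx2-2* window are the NKX2 motif on the reverse strand, 197 bases before the start, and 1 of the 8 genes held it, compared with 11.6% of all windows. The GLI motif was in 0 of the 8 genes and 0.225% of all windows, and the Iroquois motif was in 0 and 4.58%. Matches of this kind describe letters in a window and are not measured binding. The *Foxa1* window was 62% G and C, that of *Nkx6-2* 65.2% and that of *Irx3* 56%, beside a mean of 53.2% over all windows.

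Each population was hybridized to 1 one-color array, and the 3 arrays were on 1 slide. A single array per group gives no replicate check of any difference, so the values are not tested and their precision is limited by the 3 arrays. In MGE-GFP+ cells 77.1% of the probes were well above background, whereas ES-Lhx6-GFP- cells had 80.3% and ES-Lhx6-GFP+ cells 90.6%. A set of 106 control probes, directed to the viral E1A gene or to artificial ERCC RNAs and so to no mouse transcript, had median intensities of 7.73 for MGE-GFP+, 11.5 for ES-Lhx6-GFP- and 69.9 for ES-Lhx6-GFP+ cells. The 95th percentiles of this set were 152, 208 and 377, respectively. Probes printed at 5 or more spots gave an SD of a log2 difference between arrays of 0.20, so that a difference of 0.40, or 1.32-fold, is 2 SDs. This spread covers spots of 1 array and leaves out the differentiation, the sort and the amplification. As a check of the labels, the log2 difference of ES-Lhx6-GFP+ from ES-Lhx6-GFP- cells was 1.52 for *Nkx2-1* and 2.63 for *Lhx6*, although the brightest probe of *Lhx6* alone gave 0.05.

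Levels below are background-subtracted intensities on a linear scale, which do not compare probes with each other. They are not scaled between arrays, whose 75th percentiles were 747 for ES-Lhx6-GFP+, 843 for ES-Lhx6-GFP- and 576 for MGE-GFP+ cells. The order of similar levels on different arrays can therefore reverse after scaling, and arrays are compared by the scaled differences. Differences are of log2 intensity after subtraction of each array's 75th percentile. Where a probe was not well above background on the MGE-GFP+ array, its fold is a lower bound, written "at least". It is taken against the lowest signal among probes well above background on that array. These bounds hold for this scaling and floor only, and are not minimum folds under other processing. Every gene of the set with such a bound had a smaller fold under some other processing. From ES-Lhx6-GFP- to MGE-GFP+ cells, the log2 bounds were -8.08 for *Irx3* and -6.69 for *Foxa1* as processed here. With the 95th percentile of the control probes as the floor they were -4.43 and -3.04. Without the filter on dim probes the differences were -10.1 and -9.03. On this scale all 12 probes were well above background on both ES arrays, but 5 of 12 were on the MGE-GFP+ array.

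**Figure D1:**
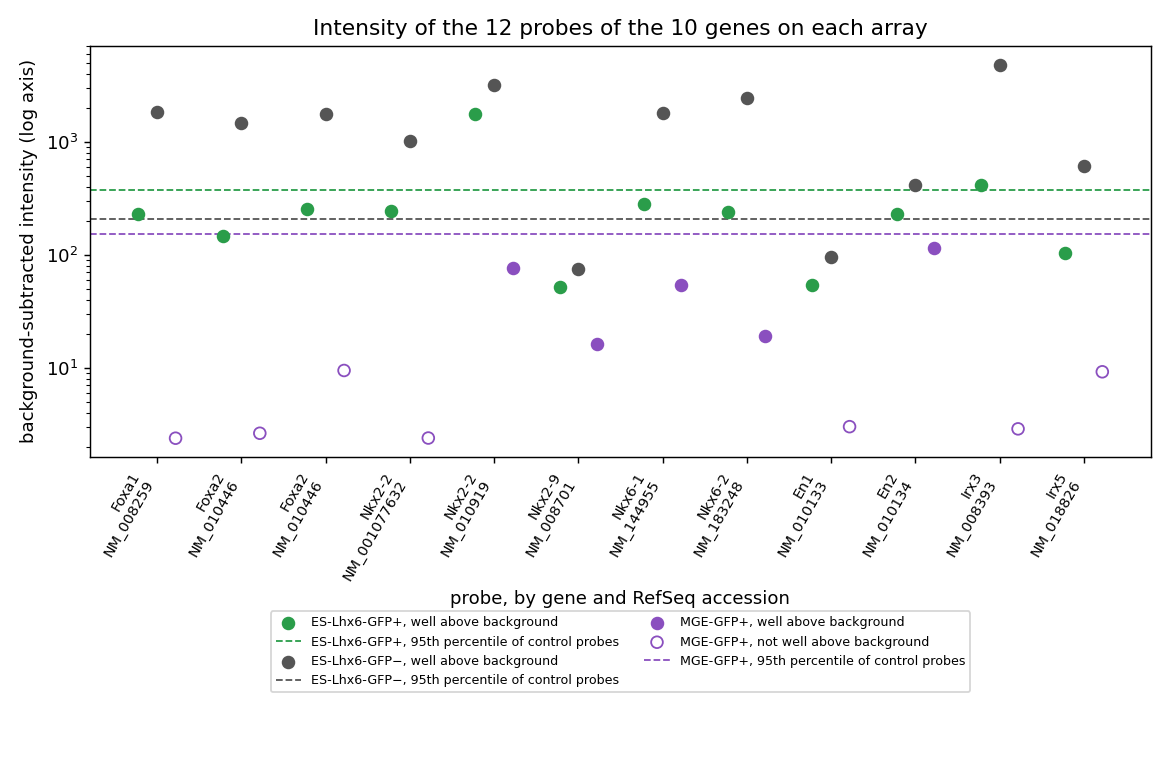
Background-subtracted intensity (log axis) of the 12 probes on the 3 arrays, 1 point per probe and array, with open circles where a probe was not well above background. Dashed lines are the 95th percentile of the control probes of each array (377, 208 and 152), and the ES-Lhx6-GFP- point is the highest and the MGE-GFP+ point the lowest for every probe.

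The floor plate factors *Foxa1* and *Foxa2* were among the genes with the clearest order of the 3 populations. *Foxa1* (NM_008259) had an intensity of 1831 in ES-Lhx6-GFP- cells, 229.5 in ES-Lhx6-GFP+ cells and 2.4 in MGE-GFP+ cells, where it was not well above background. Its level was 7.07-fold lower in ES-Lhx6-GFP+ than in ES-Lhx6-GFP- cells (-2.82 on the log2 scale) and at least 14.7-fold lower in MGE-GFP+ than in ES-Lhx6-GFP+ cells. The distance from ES-Lhx6-GFP- to MGE-GFP+ cells was at least 104-fold.

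*Foxa2* (NM_010446) was read by 2 probes that agree in order. One had intensities of 1472, 145.3 and 2.6 in ES-Lhx6-GFP- cells, ES-Lhx6-GFP+ cells and MGE-GFP+ cells, and the other 1770, 255.7 and 9.5. Neither probe was well above background in MGE-GFP+ cells. The difference between the ES populations was 8.97-fold by the first probe and 6.13-fold by the other, and their mean of -2.89 on the log2 scale is 7.42-fold. MGE-GFP+ cells were at least 12.3-fold below ES-Lhx6-GFP+ cells and at least 91.3-fold below ES-Lhx6-GFP- cells for *Foxa2*. By contrast, *Foxa3*, a further relative that acts mainly in endoderm and was named here after its values were seen, had intensities of 66.8 in ES-Lhx6-GFP+ and 62.0 in ES-Lhx6-GFP- cells, within the range of the control probes on both arrays.

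*Nkx2-2* and *Nkx2-9* encode homeodomain factors of the progenitors that flank the floor plate. The probe for transcript variant 1 of *Nkx2-2* (NM_010919) had an intensity of 3186 in ES-Lhx6-GFP- cells, 1747.5 in ES-Lhx6-GFP+ cells and 76.1 in MGE-GFP+ cells. The probe for variant 2 (NM_001077632) had 1014.5, 243.3 and 2.4, the last not well above background. Both probes gave the same order, but the ES populations differed by 1.61-fold with the variant 1 probe and by 3.69-fold with the variant 2 probe, and the gene's mean was 2.44-fold, or -1.29 on the log2 scale. Among the 10 genes, *Nkx2-2* was therefore below the 4-fold limit between the ES populations, while it was at least 16.6-fold lower in MGE-GFP+ than in ES-Lhx6-GFP+ cells. *Nkx2-2* and *Foxa2* are neighbors on chromosome 2, with *Pax1*, which was not well above background on any array, between them, and *Nkx2-4* on the other side of *Nkx2-2* differed by -0.89 between the ES populations.

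*Nkx2-9* (NM_008701) was dim on all 3 arrays, with intensities of 75.1 in ES-Lhx6-GFP-, 52.3 in ES-Lhx6-GFP+ and 16.1 in MGE-GFP+ cells. All 3 values were within the range of the control probes of their array. The ES populations differed by -0.35 on the log2 scale, or 1.27-fold, which did not exceed 2 SDs of the repeat spots. The level in MGE-GFP+ cells was 2.50-fold lower than in ES-Lhx6-GFP+ cells, but the direction turned with the scaling, to 0.65 on the log2 scale after quantile normalization. On chromosome 12, *Nkx2-9* lies next to *Nkx2-1*, which had intensities of 3673 in ES-Lhx6-GFP+, 1444 in ES-Lhx6-GFP- and 8371 in MGE-GFP+ cells. As scaled here this order of the populations was the reverse of that for *Nkx2-9*, but the order for *Nkx2-9* is not settled by these values.

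*Nkx6-1* and *Nkx6-2* encode related repressors of the ventral neural tube that share roles in motor neuron formation. *Nkx6-1* (NM_144955) had intensities of 1792 in ES-Lhx6-GFP-, 279.4 in ES-Lhx6-GFP+ and 53.5 in MGE-GFP+ cells, and the last was still well above background. Its level was 5.68-fold lower in ES-Lhx6-GFP+ than in ES-Lhx6-GFP- cells, and MGE-GFP+ cells were 4.02-fold lower again. *Nkx6-2* (NM_183248) had intensities of 2451, 239.4 and 18.9. Its folds were larger, at 9.07 between the ES populations, 9.75 between ES-Lhx6-GFP+ and MGE-GFP+ cells and 88.4 between ES-Lhx6-GFP- and MGE-GFP+ cells. This last log2 difference, -6.47, was the sixth from the lowest of the 15234 genes measured on both arrays. The rank leaves out genes held as bounds, among them *Irx3*, *Foxa1* and *Foxa2*. The MGE-GFP+ level of *Nkx6-2* was within the range of the control probes, and the difference was -4.38 with the deposited log2 values.

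*En1* and *En2*, which are needed for the midbrain and cerebellum, differed least between the ES populations apart from *Nkx2-9*. Each has 1 probe printed at 10 spots. *En1* (NM_010133) had mean intensities of 95.3 in ES-Lhx6-GFP-, 53.7 in ES-Lhx6-GFP+ and 3.0 in MGE-GFP+ cells, the last not well above background, and both ES values were within the range of the control probes. The SD of its log2 intensity over these spots was 0.111 for ES-Lhx6-GFP- and 0.137 for ES-Lhx6-GFP+ cells, and the difference between them was -0.65, or 1.57-fold. *En1* was at least 3.43-fold lower in MGE-GFP+ than in ES-Lhx6-GFP+ cells, and at least 5.39-fold lower than in ES-Lhx6-GFP- cells.

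*En2* (NM_010134) had mean intensities of 417.1 in ES-Lhx6-GFP-, 228.1 in ES-Lhx6-GFP+ and 115.5 in MGE-GFP+ cells, with spot SDs of 0.057, 0.122 and 0.186 on the log2 scale. It was well above background in all 3 populations, but above the range of the control probes in ES-Lhx6-GFP- cells only. The ES populations differed by -0.70, or 1.62-fold, and MGE-GFP+ cells were 2.47-fold lower than ES-Lhx6-GFP- cells. From ES-Lhx6-GFP+ to MGE-GFP+ cells the difference was -0.61 as scaled here and 0.14 with scaling to the 50th percentile, so these neighbors in the order are not separated.

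*Irx3* had the lowest value or bound of the 10 genes in each of the 3 comparisons as scaled here. Irx3 sets a limit to the ventral progenitor domains by mutual repression with Olig2 in the caudal neural tube. *Irx3* (NM_008393) had an intensity of 4794 in ES-Lhx6-GFP-, 417.2 in ES-Lhx6-GFP+ and 2.9 in MGE-GFP+ cells, where it was not well above background. The level was 10.2-fold lower in ES-Lhx6-GFP+ than in ES-Lhx6-GFP- cells, the 30th from the lowest of 15925 genes measured on both arrays. MGE-GFP+ cells were at least 26.6-fold lower than ES-Lhx6-GFP+ cells and at least 271-fold lower than ES-Lhx6-GFP- cells.

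*Irx5* (NM_018826) had intensities of 613.2, 103.5 and 9.2 in the same order, the last not well above background. It was 5.24-fold lower in ES-Lhx6-GFP+ than in ES-Lhx6-GFP- cells and at least 6.61-fold lower in MGE-GFP+ than in ES-Lhx6-GFP+ cells. *Irx3*, *Irx5* and *Irx6* follow each other on chromosome 8, next to *Fto*. The difference between the ES populations was -3.35 for *Irx3*, -2.39 for *Irx5*, -0.27 for *Irx6* and 0.43 for *Fto*, so *Irx3* and *Irx5* were past 4-fold and the neighbors on both sides were not. *Irx6* was dim, with intensities of 70.3, 95.5 and 51.6 in ES-Lhx6-GFP+ cells, ES-Lhx6-GFP- cells and MGE-GFP+ cells.

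**Figure D2:**
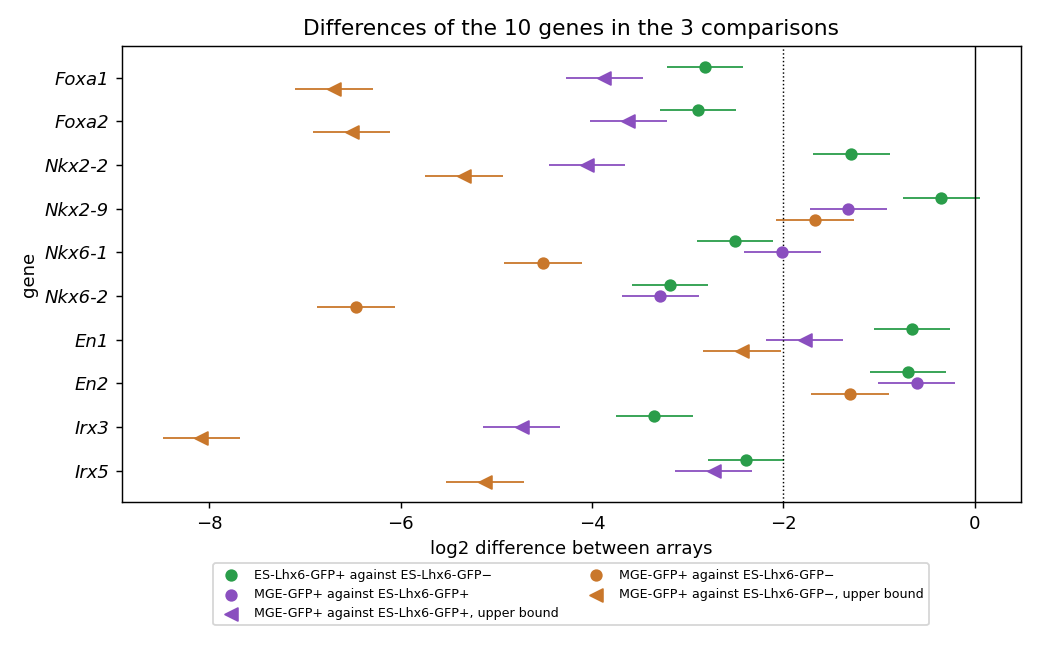
Log2 difference between arrays of the 10 genes in the 3 comparisons, with bars of 2 SDs of the repeat spots and a dotted line at 4-fold lower. Triangles mark upper bounds, where at least 1 probe of the gene was not well above background in MGE-GFP+ cells. *Irx3* lies lowest in each comparison, and the bar of *Nkx2-9* between the ES populations reaches 0.

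The comparison within the differentiated ES cells asks how the cells that turned on the *Lhx6* transgene differ from the other cells of the same aggregates. *Foxa1*, *Foxa2*, *Nkx6-1*, *Nkx6-2*, *Irx3* and *Irx5* were at least 4-fold lower in ES-Lhx6-GFP+ cells, that is 6 of 10 genes, compared with 1.75% of the 18655 genes with a value. None of the 10 was at least 4-fold higher, compared with 8.27% of all genes. All 10 were lower, 9 of them past 2 repeat-spot SDs, compared with 18.2% of all genes, and *Nkx2-9* was the exception. Their median difference was -2.45, or 5.46-fold, while the median of all genes was 0.27. Relative to that median the differences ran from -3.61 for *Irx3* to -0.61 for *Nkx2-9*.

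The share of all genes past 4-fold moved with the scaling. With the 50th percentile 3.13% of genes were at least 4-fold lower and 4.70% higher, and after quantile normalization 5.06% and 2.90%, while 6 of the 10 genes were at least 4-fold lower in both cases. With the 95th percentile of the control probes as the floor, 7 of the 10 genes had a value or bound, and 4 of these were at least 4-fold lower. All of them but *Irx3* were bounds, since 8 of the 10 genes did not exceed that percentile in ES-Lhx6-GFP+ cells. *Foxa2*, at -1.92 or lower, and *Irx5*, at -0.53 or lower, were then not called, and such bounds do not show whether they pass 4-fold.

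The comparison of MGE-GFP+ with ES-Lhx6-GFP+ cells asks how closely the ES-derived cells resemble their counterparts in the embryo. Here 7 of the 10 genes were at least 4-fold lower in MGE-GFP+ cells, compared with 13.5% of 18580 genes, and 0 of 10 were at least 4-fold higher, compared with 0.533%. The 7 were *Foxa1*, *Foxa2*, *Nkx2-2*, *Nkx6-1*, *Nkx6-2*, *Irx3* and *Irx5*, and 5 of them (all but *Nkx6-1* and *Nkx6-2*) are bounds. All 10 were lower by over 2 SDs of repeat spots, compared with 48.6% of all genes. The median of the 10 was a bound of -3.01, or at least 8.03-fold lower, and that of all genes -0.36, so that *Nkx6-1* relative to all genes was at -1.65.

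This count depended on the processing more than the others. It was 5 with scaling to the 50th percentile and 5 after quantile normalization, but 2 with the deposited log2 values, where 0.993% of all genes were at least 4-fold lower. *Nkx2-2*, at -2.58, and *Irx3*, at -3.56, were past 4-fold by the deposited values, and *Foxa1* was at -1.93. Among all genes 5.39% were at least 4-fold lower and 2.93% higher with the 50th percentile, and 3.49% and 3.50% after quantile normalization. The level of the control probes, which was higher on the ES-Lhx6-GFP+ array, moved in the same direction as the 10 genes in this comparison, and its part in the result was not tested.

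In MGE-GFP+ against ES-Lhx6-GFP- cells, 8 of the 10 genes were at least 4-fold lower, compared with 6.8% of 17025 genes, and 0 were at least 4-fold higher, compared with 1.69%. *Nkx2-9*, at 3.18-fold lower, and *En2*, at 2.47-fold lower, made up the rest. Of the 8 calls, those other than *Nkx6-1* and *Nkx6-2* are bounds, and so is the median of the 10, at least 37.5-fold lower (-5.23), beside -0.06 for all genes. All 10 were lower by over 2 SDs of repeat spots, compared with 34.4% of all genes. The 3 comparisons share arrays 2 at a time, so their values are not independent of each other.

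**Figure D3:**
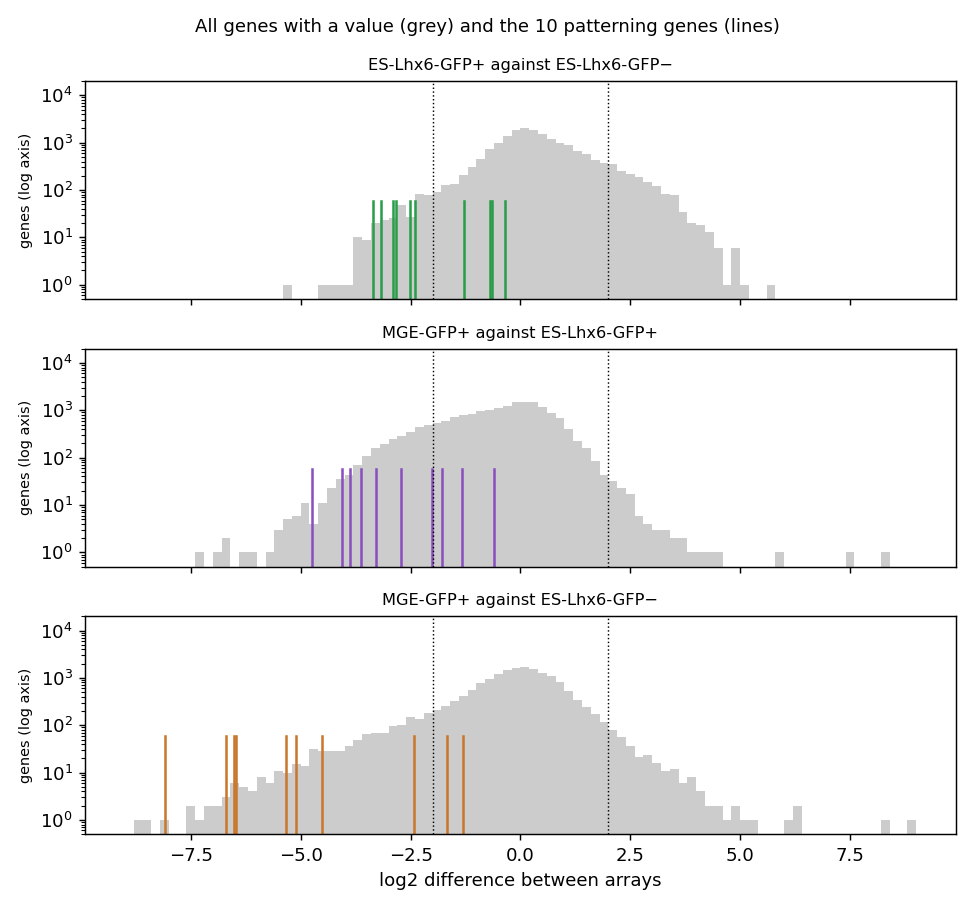
Log2 difference of all genes with a value (grey; number of genes on a log axis, in bins of 0.2) and of the 10 patterning genes (coloured lines) in the 3 comparisons, with dotted lines at 4-fold. Between the ES populations 6 of the 10 lines lie below -2, in a region with few other genes, and in MGE-GFP+ against ES-Lhx6-GFP+ cells the lines overlap a broad lower tail of all genes.

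Against the control probes, the levels of the 10 genes were high in ES-Lhx6-GFP- cells and low elsewhere. In ES-Lhx6-GFP- cells 8 of 10 exceeded the 95th percentile of the control probes, all but *En1* and *Nkx2-9*, compared with 54.7% of all genes. In ES-Lhx6-GFP+ cells 2 of 10 did, *Nkx2-2* and *Irx3*, compared with 43.7%, and in MGE-GFP+ cells 0 of 10, compared with 49.6%.

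The genes whose pattern was most like that of *Foxa2*, by Euclidean distance between the log2 differences of ES-Lhx6-GFP+ and MGE-GFP+ cells from ES-Lhx6-GFP- cells, were found among 15923 genes well above background in ES-Lhx6-GFP- cells. With 3 arrays the likeness rests on 2 values per gene, and that of MGE-GFP+ cells is a bound for *Foxa2*, *Foxa1* and *Hspb1*, so the distances depend on the floor of that array. *Hspb1*, a small heat shock protein, was at a distance of 0.085, with differences of -2.85 and, as a bound, -6.59. *Foxa1* was at a distance of 0.195, *Nkx6-2* at 0.294 and *Fev*, a factor of serotonergic neurons, at 0.324.

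Most of the other floor plate genes were also lower in ES-Lhx6-GFP+ cells. Of 14 floor plate products and co-factors, 11 were lower in ES-Lhx6-GFP+ than in ES-Lhx6-GFP- cells, 4 of them by at least 4-fold, and 0 were at least 4-fold higher, with a median of -1.22. *Lmx1a*, a factor of the midbrain floor plate and its dopaminergic neurons, had intensities of 540.7 in ES-Lhx6-GFP+, 4223 in ES-Lhx6-GFP- and 60.8 in MGE-GFP+ cells, and was 6.92-fold lower in the former ES population. *Spon1*, which encodes the secreted floor plate protein F-spondin, had intensities of 2849, 18695 and 741 and was 5.81-fold lower. *Sulf1*, an extracellular sulfatase, was 6.10-fold lower and *Ntn1*, the axon guidance ligand netrin 1, was 4.28-fold lower. *Ntn1* was within the range of the control probes in ES-Lhx6-GFP+ cells (213), and its log2 difference fell to as little as -1.28 under an alternative.

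*Shh* itself, the inducing ligand, did not follow this order. It was outside the rule for genes to be named and is given after its values were seen. Its intensity was 3212 in ES-Lhx6-GFP+, 2961 in ES-Lhx6-GFP- and 2267 in MGE-GFP+ cells. The log2 differences were 0.29 between the ES populations and -0.13 and 0.16 for MGE-GFP+ cells against ES-Lhx6-GFP+ cells and against ES-Lhx6-GFP- cells, all within 2 SDs of the repeat spots, and each changed sign under another scaling. In MGE-GFP+ against ES-Lhx6-GFP- cells, 10 of the 14 floor plate genes were at least 4-fold lower, with a median of -2.53, including *Corin*, a protease of floor plate cells, at least 23.6-fold.

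Among ventral progenitor and dorsoventral partners, 4 of 11 genes with a value were at least 4-fold lower in ES-Lhx6-GFP+ than in ES-Lhx6-GFP- cells and 0 higher, with a median of -1.16. *Olig2*, a bHLH factor of motor neuron and oligodendrocyte progenitors, had intensities of 477.6 in ES-Lhx6-GFP+, 4117 in ES-Lhx6-GFP- and 623 in MGE-GFP+ cells and was 7.63-fold lower. *Olig1* was 8.78-fold, *Dbx1*, a factor of interneuron progenitors, 4.31-fold and *Gli1* 4.10-fold lower. *Dbx1* was within the range of the control probes on both ES arrays (32.4 and 158). *Olig1* (72.9) and *Gli1* were within it in ES-Lhx6-GFP+ cells. The log2 difference of *Olig1* fell to as little as -0.76, and that of *Dbx1* to -1.13, under an alternative. *Gli1*, a transcriptional target of hedgehog signaling, had intensities of 245, 1133 and 28.3, and was 27.4-fold lower in MGE-GFP+ than in ES-Lhx6-GFP- cells. *Gli1* therefore had the same order of populations as the 10 genes, and *Olig2* did not, since it was 1.69-fold higher in MGE-GFP+ than in ES-Lhx6-GFP+ cells.

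Of 8 genes with a value from a list of neurons that arise in these domains, 7 were lower in ES-Lhx6-GFP+ than in ES-Lhx6-GFP- cells, 2 of them by at least 4-fold, with a median of -0.76. *Isl2*, a LIM homeodomain factor of motor neurons, was higher by 2.53-fold, and *Isl1*, at -0.28, differed by less than 2 SDs of repeat spots. *Isl2* was within the range of the control probes on both ES arrays (128 and 57.3). Its log2 difference of 1.34 fell to as little as 0.25 under an alternative. *Lhx4* and *Lhx3*, LIM homeodomain factors of motor neurons and interneurons, were 7.72-fold and 4.42-fold lower. Both were within the range of the control probes in ES-Lhx6-GFP+ cells (100 and 152). Their log2 differences fell to as little as -1.04 and -0.84 under an alternative. *Nr4a2*, a nuclear receptor of dopaminergic neurons, was the 1 gene of this list that was at least 4-fold higher in MGE-GFP+ than in ES-Lhx6-GFP+ cells, at 5.24-fold.

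Few partners of the engrailed genes at the isthmus and midbrain passed 4-fold. Of 11 genes, 1 was at least 4-fold lower in ES-Lhx6-GFP+ than in ES-Lhx6-GFP- cells and 0 higher, with a median of -0.47. That gene was *Otx1*, a forebrain and midbrain homeobox gene, with intensities of 36.3, 172 and 3.49 in ES-Lhx6-GFP+ cells, ES-Lhx6-GFP- cells and MGE-GFP+ cells, all within the range of the control probes, and its log2 difference of -2.07 ran from -3.64 to -1.29 over the alternatives. *Otx2* was 2.15-fold lower, and *Fgf8*, the isthmic ligand, at least 2.05-fold higher, although within the range of the control probes. *Gbx2*, a hindbrain gene that is also expressed in the MGE, was at least 4-fold higher in MGE-GFP+ cells in both comparisons, at 4.18-fold and 6.61-fold.

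Of 9 Iroquois and diencephalic partners with a value, 2 were at least 4-fold lower in ES-Lhx6-GFP+ than in ES-Lhx6-GFP- cells and 1 was at least 4-fold higher, and the median of -0.27 changed sign when the brightest probe of each gene was taken. *Irx1* had intensities of 519 in ES-Lhx6-GFP+, 3761 in ES-Lhx6-GFP- and 19.7 in MGE-GFP+ cells, so that ES-Lhx6-GFP- cells exceeded ES-Lhx6-GFP+ cells by 6.42-fold and MGE-GFP+ cells by 130-fold. *Dbx1*, which this list shares, was the other and was within the range of the control probes on both ES arrays. *Lhx9*, a LIM homeodomain factor of the thalamus, was past 4-fold higher, with intensities of 153 and 26.2 that were also within that range. Its log2 difference of 2.38 fell to as little as 0.78 under an alternative. The Iroquois genes therefore did not all move together, since *Irx4* was higher by 2.15-fold in ES-Lhx6-GFP+ cells.

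Of 19 Hox and boundary genes with a value, 9 were lower in ES-Lhx6-GFP+ than in ES-Lhx6-GFP- cells, 2 of them by at least 4-fold and 0 higher by as much. Their median was 0.65 as scaled here and -0.95 after quantile normalization, so the list has no settled direction. *Hoxa3*, at 4.22-fold lower, and *Hoxa4*, at 4.04-fold lower, were the 2, and *Hoxa2* was 3.88-fold lower. *Hoxa3*, *Hoxa4* and *Hoxa2* were within the range of the control probes in ES-Lhx6-GFP+ cells. Their log2 differences fell to as little as -1.81, -1.54 and -1.09, respectively, under an alternative. *Hoxa3* had intensities of 313 in ES-Lhx6-GFP+, 1491 in ES-Lhx6-GFP- and 8.67 in MGE-GFP+ cells. In MGE-GFP+ cells 16 of the 22 genes of the list had a level that was not well above background.

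**Figure D4:**
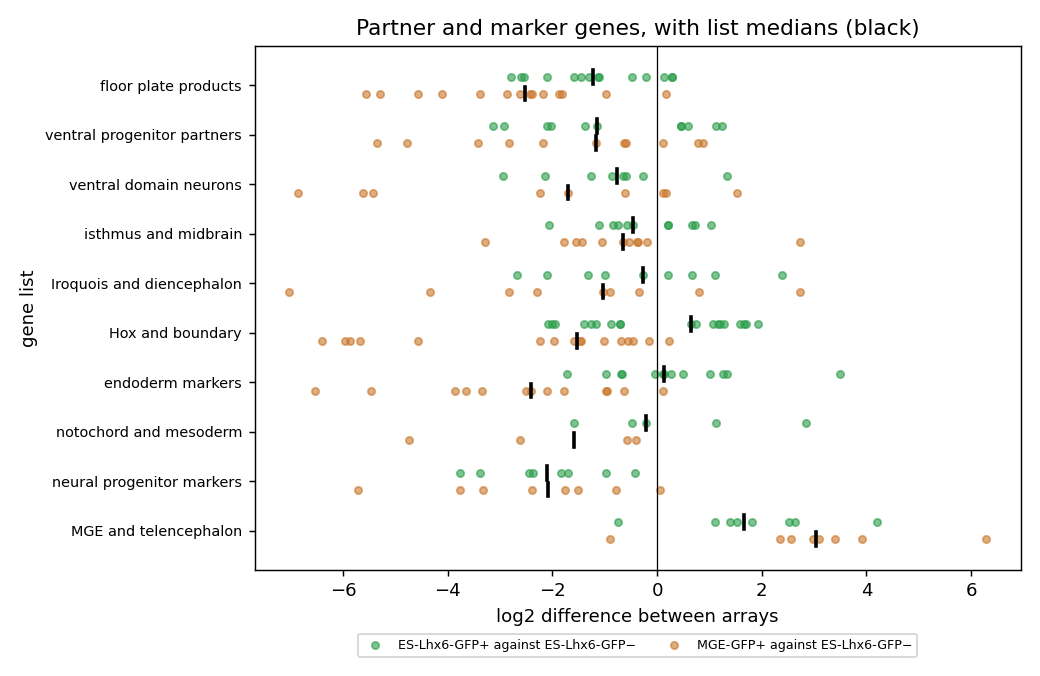
Log2 differences of the genes of 10 lists for ES-Lhx6-GFP+ (green) and MGE-GFP+ (orange) against ES-Lhx6-GFP- cells, 1 point per gene with bounds drawn at the bound, and the median of each list as a black bar. The medians of floor plate products (-1.22) and neural progenitor markers (-2.10) lie below 0 between the ES populations and that of MGE and telencephalic genes (1.67) above it.

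Markers of other cell types were examined because *Foxa1* and *Foxa2* are also expressed in endoderm and notochord. Of 14 endoderm markers, 5 exceeded the control probes in ES-Lhx6-GFP+, 7 in ES-Lhx6-GFP- and 1 in MGE-GFP+ cells, and their summed intensities were 8214, 18495 and 2346. *Cxcr4*, a chemokine receptor that migrating interneurons also express, made up 3572, 13271 and 2101 of these sums. *Sox17*, which defines endoderm, had intensities of 55.9, 101 and 3.79, and *Afp* had 6.46, 17.9 and 5.44, all within the range of the control probes. However, *Gata4* (256), *Gata6* (274), *Epcam* (347) and *Krt18* (1428) exceeded the control probes in ES-Lhx6-GFP- cells. In ES-Lhx6-GFP+ cells *Epcam* (434) and *Krt18* (780) did so, and *Gata4* (116) and *Gata6* (235) did not. *Cldn6*, at 1743 in ES-Lhx6-GFP+ and 1806 in ES-Lhx6-GFP- cells, and *Ttr*, which is also made by the choroid plexus, at 747 and 778, were high in both ES populations and not well above background in MGE-GFP+ cells (13.3 and 2.65). Between the ES populations the 13 markers with a value had a median of 0.12, which turned to -0.41 after quantile normalization, and *Hnf4a* was the 1 marker past 4-fold, with intensities of 190 in ES-Lhx6-GFP+ and 18.96 in ES-Lhx6-GFP- cells that were both within the range of the control probes. In each comparison of MGE-GFP+ cells with an ES population, 8 of 13 were at least 4-fold lower. Endoderm markers thus moved with the 10 genes between MGE-GFP+ and ES cells, and their part in those differences was not tested.

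Of 7 notochord and mesoderm markers, 0 exceeded the control probes in ES-Lhx6-GFP+ and in MGE-GFP+ cells and 1 in ES-Lhx6-GFP- cells, with summed intensities of 548, 92.2 and 801 in these 3 populations. The 5 with a value had a median of -0.22 between the ES populations, which changed sign without the filter on dim probes. The marker that exceeded them was *Twist1*, at 475 in ES-Lhx6-GFP- cells. *T* and *Noto*, which define the notochord, had intensities of 10.2 and 23.5 in ES-Lhx6-GFP- cells and 34.5 and 150 in ES-Lhx6-GFP+ cells. Neither *T* nor *Noto* exceeded the control probes on any array. *Noto* was the 1 marker of this list past 4-fold between the ES populations, at 7.19-fold higher in ES-Lhx6-GFP+ cells. Neural progenitor markers moved with the 10 genes. All 8 were lower in ES-Lhx6-GFP+ than in ES-Lhx6-GFP- cells, 4 by at least 4-fold, with a median of -2.10. Their summed intensities were 9228 in ES-Lhx6-GFP+, 51609 in ES-Lhx6-GFP- and 8634 in MGE-GFP+ cells, and 5, 8 and 5 of the 8 exceeded the control probes.

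*Slc1a3*, a glutamate transporter of radial glia, was 13.6-fold and *Vim* 10.4-fold lower in ES-Lhx6-GFP+ than in ES-Lhx6-GFP- cells. In MGE-GFP+ against ES-Lhx6-GFP+ cells, where 7 of the 10 patterning genes were at least 4-fold lower, the progenitor markers had a median of -0.04, which changed sign with the scaling, and 0 of 8 past 4-fold in either direction. Pan-neuronal genes had a median of 0.73 between the ES populations, with 0 of 6 past 4-fold. Pluripotency genes had a median of -1.50 with 1 of 5 at least 4-fold lower, which was *Dppa5a*. The part of progenitor content in the differences between the ES populations was not tested.

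The MGE and telencephalic genes went the other way. All 8 exceeded the control probes on each array. Against ES-Lhx6-GFP- cells, 3 of the 8 were past 4-fold higher in ES-Lhx6-GFP+ and 7 in MGE-GFP+ cells, with medians of 1.67 and 3.03. *Lhx8*, a LIM homeodomain factor of MGE-derived neurons, was 18.4-fold higher in ES-Lhx6-GFP+ than in ES-Lhx6-GFP- cells, and *Six3*, a rostral forebrain gene, was 1.68-fold lower.

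**Figure D5:**
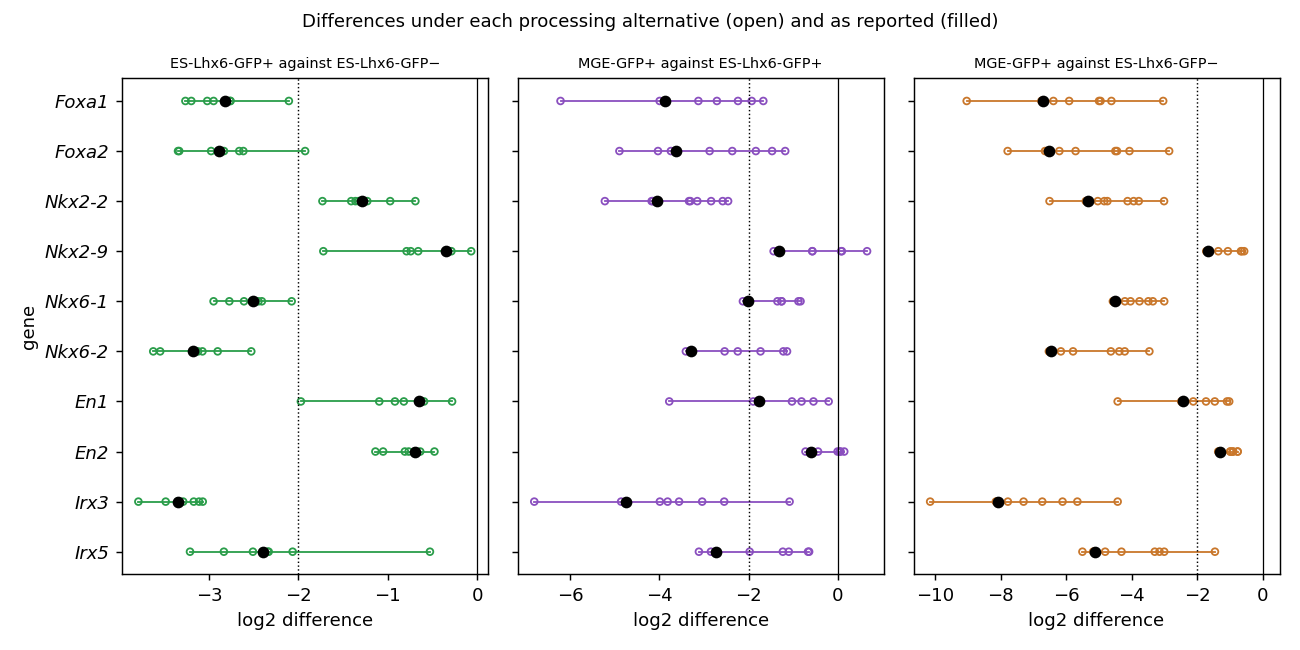
Log2 difference of each of the 10 genes in the 3 comparisons as reported (black) and under each processing alternative that gave a value (open circles, joined by a line from lowest to highest), with dotted lines at 4-fold lower. All values lie below 0 except those of *En2* and *Nkx2-9* in MGE-GFP+ against ES-Lhx6-GFP+ cells.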

How the data were processed

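Cy3-labelled total RNA of 3 sorted populations was hybridized to 3 one-color Agilent whole mouse genome arrays on 1 slide, 1 array per group, with groups taken from the labels. The authors extracted the scans with Agilent Feature Extraction (10.7.3.1 in the file headers), and the deposited intensity of each spot is linear, background-subtracted and not scaled between arrays. The paper describes the 8×60K format with whole transcriptome amplification, while the labels name a 4x44K array and a low-input kit. The authors also deposited a log2 table, which came within 0.0714 for every probe of quantile-normalized log2 median spot intensities without background subtraction.

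Here outlier spots were left out (98 for MGE-GFP+, 137 for ES-Lhx6-GFP- and 135 for ES-Lhx6-GFP+ cells, with 0 saturated), repeat spots averaged, log2 taken and the 75th percentile of mouse probes subtracted. A probe was well above background where at least 0.5 of its spots carried the software's call, and was otherwise raised to the lowest level among called probes of that array. Differences without the call on either array were left out. Probes of a gene with a value were averaged. RefSeq accessions named 26582 probes. Calls were set at 4-fold.

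Alternatives were scaling to the 50th percentile or over commonly detected probes, quantile normalization, limma normexp (offset 50) with quantile normalization, no background subtraction, the deposited log2 values, no filter on dim probes, the 95th percentile of control probes as floor, and the brightest probe of a gene. Normexp used median spot intensities in place of means. R 4.3.3 with limma 3.58.1 and Python 3.11.15 with pandas 2.3.3 were used, and the steps were tested on simulated data. Besides the 10 genes, up to 4 genes per list and comparison with the largest differences, the 5 genes nearest to *Foxa2*, and markers that check the labels (*Lhx6* and *Nkx2-1* among them) were to be named. Some genes that this rule names are not reported here. *Foxa3*, *Shh*, *Isl1*, *Nr4a2*, *Six3*, *Sox17*, *Afp*, *Epcam*, *Krt18* and the genomic neighbors of the 10 genes fall outside this rule and were named after their values were seen. The members and lists were chosen with earlier results of these data known.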

Additional observations from a re-analysis of the deposited data

How the results depend on the processing

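The count of genes at least 4-fold lower in MGE-GFP+ than in ES-Lhx6-GFP+ cells, 7 as reported, was 2 after normexp and quantile normalization, 3 without background subtraction, 2 with the deposited log2 values and 1 (of 2 genes with a value) with the control probes as the floor. The share of all genes at least 4-fold lower, 13.5% as reported, was 0.767%, 1.93%, 0.993% and 1.18% under these alternatives. The other counts, 6 for ES-Lhx6-GFP+ and 8 for MGE-GFP+ cells against ES-Lhx6-GFP- cells, stayed within 1.5 times under every alternative run, at 4 to 6 and 6 to 8. *Nkx2-9* turned to higher in MGE-GFP+ than in ES-Lhx6-GFP+ cells after quantile normalization (0.65), normexp with quantile normalization (0.0866) and with the deposited log2 values (0.0716), and *En2* did with the 50th percentile (0.14), quantile normalization (0.0580) and normexp (0.0370). The cause was not tested. No other member changed direction. Of 256 values of single genes under alternatives, 97 moved by less than 1 SD of the repeat spots, 153 moved by more in the same direction and 6 turned.

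No paired analysis was possible because each group has 1 array and the labels carry no replicate numbers. Leaving out an array was not run, since none would remain in its group, and neither was a slide block, since there was 1 slide. Signal near background limits the folds against MGE-GFP+ cells, where 7 of the 12 probes are bounds.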
